A study of Homo sapiens with 32 samples.

Results

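The cytosolic chaperonin CCT, also called TRiC, was described here through the genes of its 8 subunits, TCP1, CCT2, CCT3, CCT4, CCT5, CCT6A, CCT7 and CCT8. They were chosen by name as the subunits of this complex and not by any measured value, though with earlier results of these data known. All 8 were found among the 29744 genes of the table and passed the filter on low counts in both cell lines. The study sequenced poly(A) RNA of 2 human prostate cancer cell lines, with 32 libraries in 8 groups of 4. LNCaP is an androgen-responsive line from a lymph node metastasis, and C4-2B is a castration-resistant line derived from LNCaP. In each line the cells carried either a control siRNA (siCTRL) or an siRNA against MOCOS (siMOCOS), the gene of molybdenum cofactor sulfurase, an enzyme that activates xanthine dehydrogenase. They were then given vehicle or thapsigargin (TG), an inhibitor of the calcium pump of the endoplasmic reticulum that provokes stress in this organelle. The groups of each line were therefore siCTRL, siCTRL TG, siMOCOS and siMOCOS TG, none of them untransfected. How much TG was used, and for how long, is not stated in these sources. Per the labels, 2 different siRNAs against MOCOS gave 2 libraries each per line and drug, but the table's columns do not name the siRNA, so these 4 libraries were treated as 1 group. In siMOCOS, columns 1 and 2 lay wholly above columns 3 and 4 for 6 of the 8 members in C4-2B and 2 in LNCaP. In siMOCOS TG, 3 members lay above and 3 below in C4-2B, and 2 above and 3 below in LNCaP. Whether this split follows the siRNA cannot be told, and the share over all genes is not given here. Both lines are established cultures, and p-values here measure the spread between the 4 libraries of a group.

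CCT is a pair of stacked rings in which each ring holds one copy of each subunit, all of them related ATPases. A newly made protein enters the cavity of a ring, and ATP hydrolysis closes a built-in lid over it while it folds. Actin and tubulin are its best known substrates, together with WD-repeat proteins such as G protein beta subunits and the cell-cycle activator CDC20. Prefoldin hands unfolded chains to CCT, and phosducin-like proteins act as its cofactors. The chaperonin works in the cytosol, whereas thapsigargin acts on the endoplasmic reticulum, whose own chaperones are a separate set.

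Column totals ranged from 7.51 M to 27.1 M counts. The targeted gene was lower in the knockdown libraries. MOCOS was at 31.5 ± 2.05 CPM (counts relative to library size; SD, n = 4) in C4-2B siCTRL against 3.42 ± 1.06 in siMOCOS, and at 24.3 ± 0.679 against 3.75 ± 0.296 in LNCaP. All 10 luminal prostate markers on the list used, among them KRT8 and KLK3, were above 1 CPM in at least 1 group. Of 7 basal and mesenchymal markers, 4 were also above 1 CPM in a group (FN1, VIM, TP63 and ZEB1). The sum of the 7 was between 158.3 and 556.4 CPM over the libraries, and FN1 alone had group means from 167.8 to 449.3 CPM. COL1A2 was at 0 in all 32 libraries, and the summed immune markers did not exceed 9.39 CPM. Of 6 stromal and endothelial markers, 3 were above 1 CPM in a group (COL1A1, VWF and ACTA2). The sum of the 6 moved with TG in both lines. After knockdown its libraries lay apart without TG in C4-2B and with TG in LNCaP. They overlapped with TG in C4-2B and without TG in LNCaP. Libraries of C4-2B summed to between 5.58 and 9.72 CPM in siCTRL and between 19.4 and 31.8 in siCTRL TG, and those of LNCaP to between 12.3 and 14.5 and between 46.2 and 66.5. In siMOCOS without TG the sum was between 11.2 and 13.1 CPM in C4-2B and between 14.0 and 23.3 in LNCaP. In siMOCOS TG it was between 27.4 and 73.6 CPM in C4-2B and between 124.3 and 238.0 in LNCaP. Most of the sum in the TG groups of LNCaP was the smooth muscle actin gene ACTA2, and its part in the CCT results was not tested. Of the 32 libraries, 7 had deviations from their group that correlated with gene GC content or length beyond 0.5 in size, among them 3 of the 4 C4-2B siCTRL libraries. The library with the strongest such correlation in each of the 4 groups concerned is called here a library that stood apart. In C4-2B these were replicate 1 of siCTRL and the libraries numbered 3 of siCTRL TG and siMOCOS TG, and in LNCaP replicate 2 of siCTRL TG. In C4-2B, siCTRL replicate 1 was the highest of its group in 8 of 8 CCT members, and siCTRL TG replicate 3 was the lowest of its group in 7 of 8.

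Promoter sequence is shown for CCT3, the member with the largest TG response, for CCT8, the clearest knockdown response in LNCaP, and for the members with a candidate heat shock element, since heat shock factors are known to be able to activate genes of this family. RefSeq promoter windows (GRCh38.p14) were matched for 7 of the 8 members, in 9 windows, with no entry for CCT6A. The 250 bases before each start were searched on both strands. The head-to-head pair of heat shock units, GAANNTTC, was found in 2 members, TCP1 and CCT2, and in 5.78% of all 35116 promoters. Each site is printed below with 30 bases on the strand of its gene, and capitals mark the matched letters. The TCP1 site begins 231 bases before the start and lies in an annotated exon of the neighbouring gene MRPL18. The CCT2 site begins 89 bases before the downstream of the CCT2 starts and lies in an exon of the longer CCT2 transcripts.

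TCP1 heat shock element, chr6:159789815-159789844, minus strand: tcgtttgaggcGAAGGTTCaacctcttccc
CCT2 heat shock element, chr12:69585789-69585818, plus strand: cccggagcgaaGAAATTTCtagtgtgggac

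The CCAAT box, the motif bound by NF-Y, was found in 4 members (CCT3, TCP1, CCT2 and CCT8) and in 32% of all promoters. CCT3 held it 2 times, 75 and 34 bases before its start, both in an exon of CCT3 and in an intron of TSACC, which overlaps there. The CCT8 copy, 63 bases before the start, lies in an exon of longer CCT8 transcripts. In these sites the box reads ATTGG, which is CCAAT on the opposite strand.

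CCT3 CCAAT box, distal, chr1:156338351-156338380, minus strand: actaaggctgtcaATTGGtctgtttttgtg
CCT3 CCAAT box, proximal, chr1:156338310-156338339, minus strand: gatgggtgcggtgATTGGcgactaccttga
CCT8 CCAAT box, chr21:29073695-29073724, minus strand: aaagggtgggctaATTGGagagccaggaag

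The same 4 members held a GC box, GGGCGG, which occurs in 42.6% of promoters. No member window held the tail-to-tail heat shock pair TTCNNGAA (6.62% of promoters), the E-box CACGTG (6.34%), the cAMP response element TGACGTCA (1.65%) or TGATGNAA, the part of the amino acid response element read by ATF4 (3.14%). None of the motif cores in the printed sites overlaps another searched motif. A match is a description of the letters in the window, and the absence of one says only that these letters are not there.

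In control cells the CCT genes were expressed at unequal levels. Per kilobase of transcript, CCT3 was the highest member in C4-2B siCTRL at 326 ± 10.6 CPM per kb, and its libraries did not overlap those of CCT7, which was next at 251 ± 42.2. CCT2, CCT5, TCP1 and CCT8 followed between 182 and 158 CPM per kb, and neighbours from CCT7 down to CCT8 overlapped between libraries. CCT6A (90.7 ± 16.8) and CCT4 (55.1 ± 11.6) were lowest, each separate from the member above it. In LNCaP siCTRL the order by CPM per kb was CCT3 (360.5), CCT7 (250), TCP1 (230.3), CCT8 (220.5), CCT2 (188), CCT5 (139), CCT6A (126) and CCT4 (57.2). There TCP1 overlapped CCT8 and CCT5 overlapped CCT6A between libraries, and the other neighbours did not overlap. The subunits sit in the complex in equal numbers, which these RNA levels per length do not mirror. Length was that of the longest annotated protein-coding transcript of each gene, not of the form expressed here, and the order may depend on that choice. The per-library levels in all groups are plotted for each gene.

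**Figure D1:**
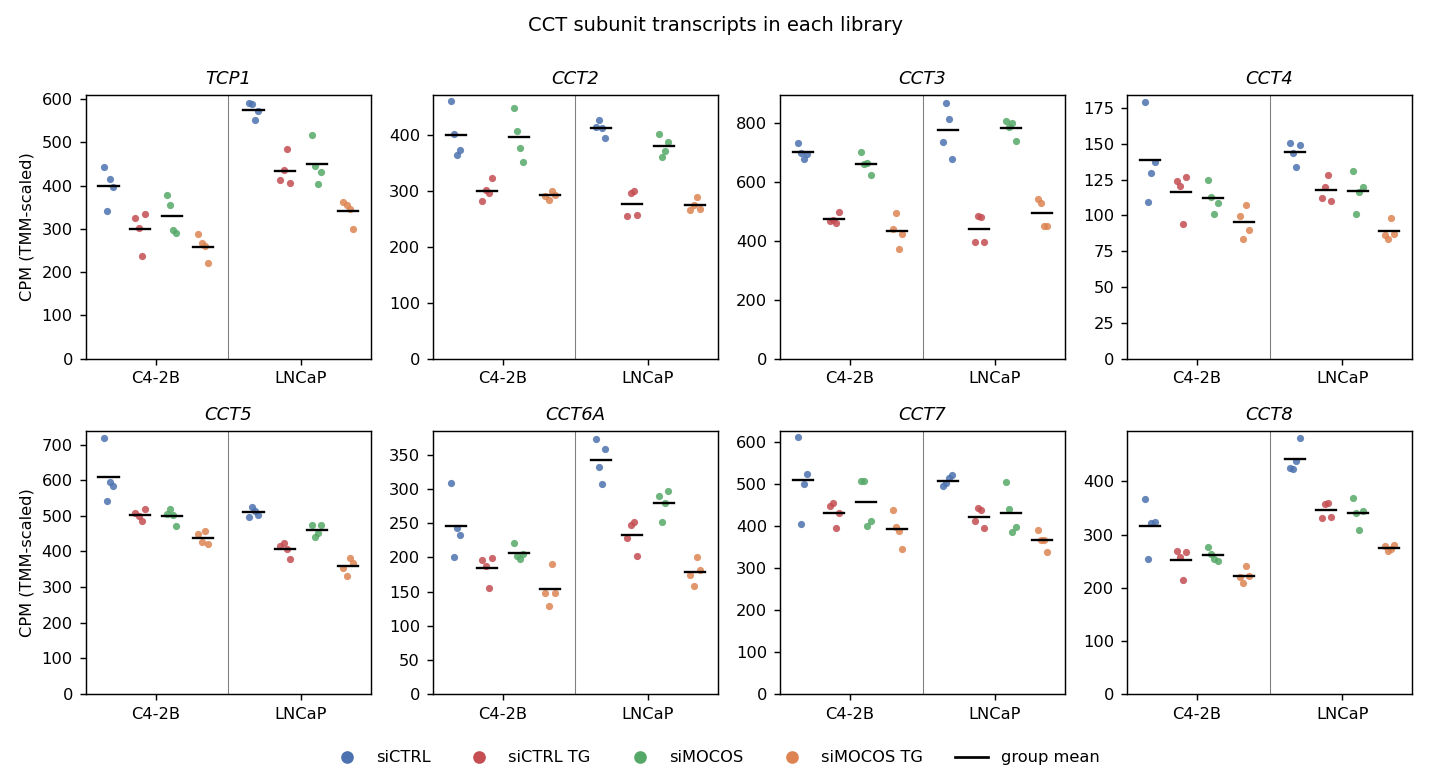
Levels of the 8 CCT subunit genes in CPM (y axis, from 0) in every library, by group (x axis) for C4-2B and LNCaP, where each point is 1 library and each bar a group mean. CCT3 in LNCaP goes from 678 to 869.7 CPM in siCTRL to 395 to 484 in siCTRL TG.

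Thapsigargin lowered CCT transcripts in control cells of both lines. In C4-2B, 6 of 8 members were called lower, and in LNCaP all 8, where called means an adjusted p under 0.05 in edgeR's quasi-likelihood test over all genes. Of all genes tested, 19.3% were called lower in C4-2B and 25.1% in LNCaP. The median member change was -0.37 on the log2 scale in C4-2B and -0.38 in LNCaP, against -0.01 and -0.04 for all genes. Without the libraries that stood apart the C4-2B median was -0.205, and CCT8 was at -0.19 and CCT4 at -0.03 there. The CPM of the 8 members summed to 3321 ± 363 (SD, n = 4) in C4-2B siCTRL and 2561 ± 155 with TG, a difference of -22.9%. In LNCaP the sum was 3709 ± 66.8 and 2673 ± 182, a difference of -27.9%. The groups did not overlap in either line. These are bulk RNA values relative to the library total, so fewer cells expressing a gene and less of its RNA per cell cannot be told apart.

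CCT3 (CCT-gamma, chr1:156308968-156367873, minus strand), one of the subunits that binds ATP weakly, had the largest change. Its 4 C4-2B siCTRL libraries were at 732, 699, 677 and 696 CPM and the siCTRL TG libraries at 467, 471, 461 and 496.5. In LNCaP they were at 737, 869.7, 815 and 678 without TG and at 395, 484, 479.6 and 396 with it. The groups were far apart in both lines. CCT3 fell by 0.57 on the log2 scale in C4-2B (SE 0.0994, adjusted p = 0.000233) and by 0.82 in LNCaP (SE 0.0994, adjusted p = 2.49e-06).

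CCT2 (CCT-beta, chr12:69585334-69601570, plus strand), which also serves as a receptor for the autophagy of protein aggregates, was also lower in both lines. Its C4-2B libraries were at 459.7, 401, 363 and 373 CPM without TG and at 281, 301, 296 and 323 with TG. In LNCaP they were at 413, 426, 412 and 394 against 254, 296, 298 and 256. No TG library reached the lowest library without TG. CCT2 fell by 0.42 (adjusted p = 0.00423) and 0.57 (adjusted p = 7.91e-06) on the log2 scale, in the order C4-2B and LNCaP.

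CCT6A (CCT-zeta, chr7:56051630-56063989, plus strand), another subunit of low ATP affinity, was at 309.5, 201, 243 and 233 CPM in C4-2B siCTRL and at 196, 188, 155 and 199.8 with TG. In LNCaP it was at 373, 332, 308 and 359 against 228.5, 247, 252 and 202. The LNCaP groups lay well apart, while in C4-2B the highest TG library came within about 1 CPM of the lowest siCTRL library. On the log2 scale CCT6A fell by 0.42 in C4-2B, with an adjusted p of 0.0215, and by 0.56 in LNCaP, with an adjusted p of 0.000155.

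TCP1 (CCT-alpha, chr6:159778498-159789749, minus strand), the subunit after which the family was first named, was at 443, 341, 415 and 397 CPM in C4-2B siCTRL and at 325, 302, 237 and 334 with TG. In LNCaP it was at 590.2, 588, 551 and 573 against 412, 435, 485 and 405. The groups did not overlap in either line. TCP1 fell by 0.42 (adjusted p = 0.018) and by 0.40 (adjusted p = 0.00101) on the log2 scale in C4-2B and LNCaP.

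The remaining subunits moved less. CCT8 (CCT-theta, chr21:29055805-29073797, minus strand) fell by 0.33 in C4-2B (adjusted p = 0.026), where 1 siCTRL library at 255 CPM lay among the TG libraries, and by 0.35 in LNCaP (adjusted p = 0.000762). CCT5 (CCT-epsilon, chr5:10249921-10266412, plus strand), in which an inherited variant causes a sensory neuropathy, fell by 0.28 and 0.32 (adjusted p = 0.0263 and 0.00123). Its siCTRL libraries were at 719.5, 542, 594 and 585 CPM in C4-2B and its siCTRL TG libraries at 508, 499, 486 and 520.2. CCT4 (CCT-delta, chr2:61868089-61888804, minus strand), which like CCT5 can form rings by itself when made alone, ranged from 109.6 to 179 CPM without TG and from 93.7 to 127 with TG in C4-2B. There its log2 change of -0.26 was not called (adjusted p = 0.155), and in LNCaP CCT4 fell by 0.29 (adjusted p = 0.0137). CCT7 (CCT-eta, chr2:73233420-73253021, plus strand) showed the same pattern, with -0.24 in C4-2B (adjusted p = 0.139) and a fall of 0.26 in LNCaP (adjusted p = 0.0142).

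All 4 TG libraries lay under all 4 siCTRL libraries for 5 of 8 members in C4-2B, against 18.6% of all genes, and for 8 of 8 in LNCaP, against 25.3%. The count of 6 called members in C4-2B rests on few libraries. Without the libraries that stood apart it was 2 (CCT2 and CCT3), and 2548 of 14272 genes were called lower. Without siCTRL TG replicate 3 alone it was 2 (CCT2 and CCT3). Without siCTRL replicate 1 it was 3 (TCP1, CCT2 and CCT3), and without siCTRL replicate 4 it was 3 (CCT2, CCT3 and CCT6A). The shares over all genes in these fits without 1 library are not given here. With no filter on low counts the member count was 4, without CCT5 and CCT8, and 2574 of 21201 genes were called lower. All 8 members had negative changes in each of these settings. In LNCaP all 8 remained called without the library that stood apart, but 6 were called without siCTRL TG replicate 1, without siCTRL TG replicate 4 and with no filter on low counts, each time without CCT4 and CCT7. Without siCTRL TG replicate 3 the count there was 7, without CCT7.

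**Figure D2:**
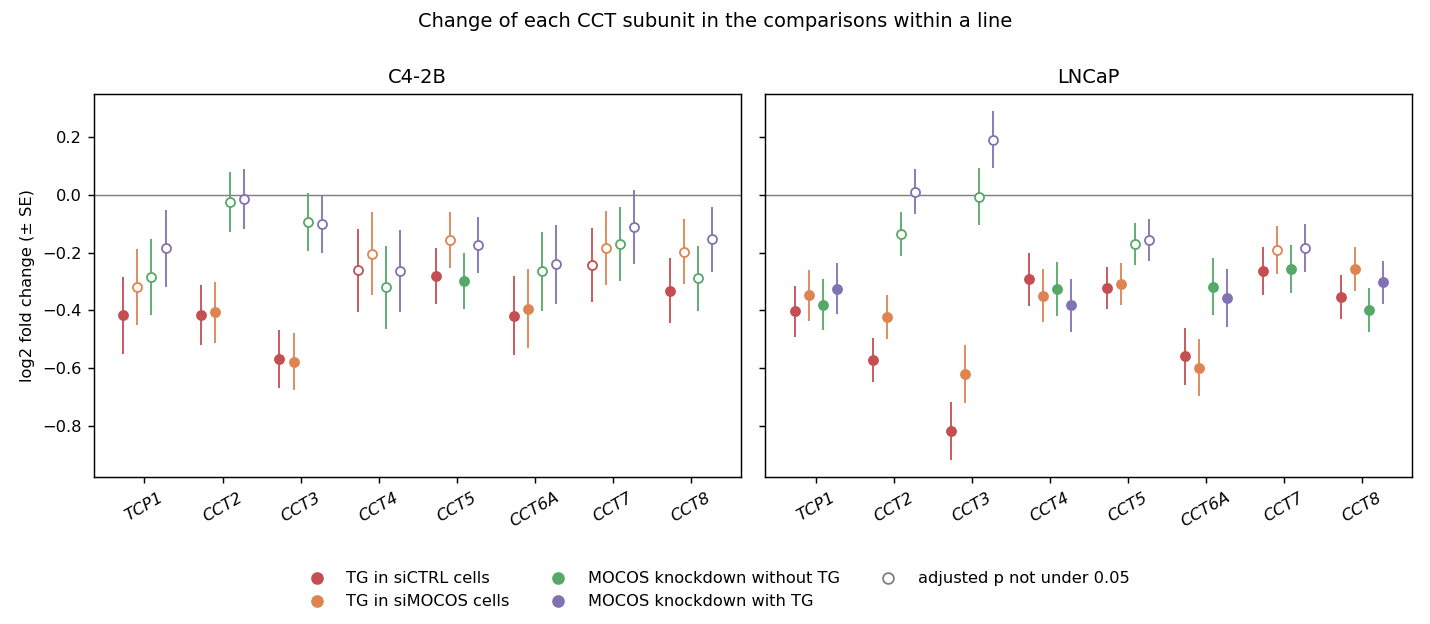
Log2 fold change of each CCT member (y axis) with its SE (bars) in the comparisons of TG and of MOCOS knockdown, by line, where filled points passed an adjusted p of 0.05. The TG changes of CCT3 reach -0.82 in LNCaP, while its knockdown change there is -0.01.

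The make-up of the summed CCT transcripts lay apart with TG for several members. In LNCaP, CCT3 made up 20.9% ± 1.97 of the summed CPM in siCTRL and 16.4% ± 0.83 with TG, and these groups did not overlap. The share of CCT2 also lay lower, at 11.1% ± 0.209 against 10.3% ± 0.274. CCT7 lay higher, at 13.7% ± 0.464 against 15.8% ± 0.305, and so did CCT5 (13.7% against 15.2%) and CCT4 (3.89% against 4.40%). In C4-2B the share of CCT3 was 21.2% ± 1.86 without and 18.5% ± 0.828 with TG, with overlapping libraries, and among the members only the share of CCT5 separated there, at 18.4% against 19.7%. These shares were not tested. A share can rise while the gene falls, and each member with a higher share here fell with TG, though less than the sum.

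**Figure D3:**
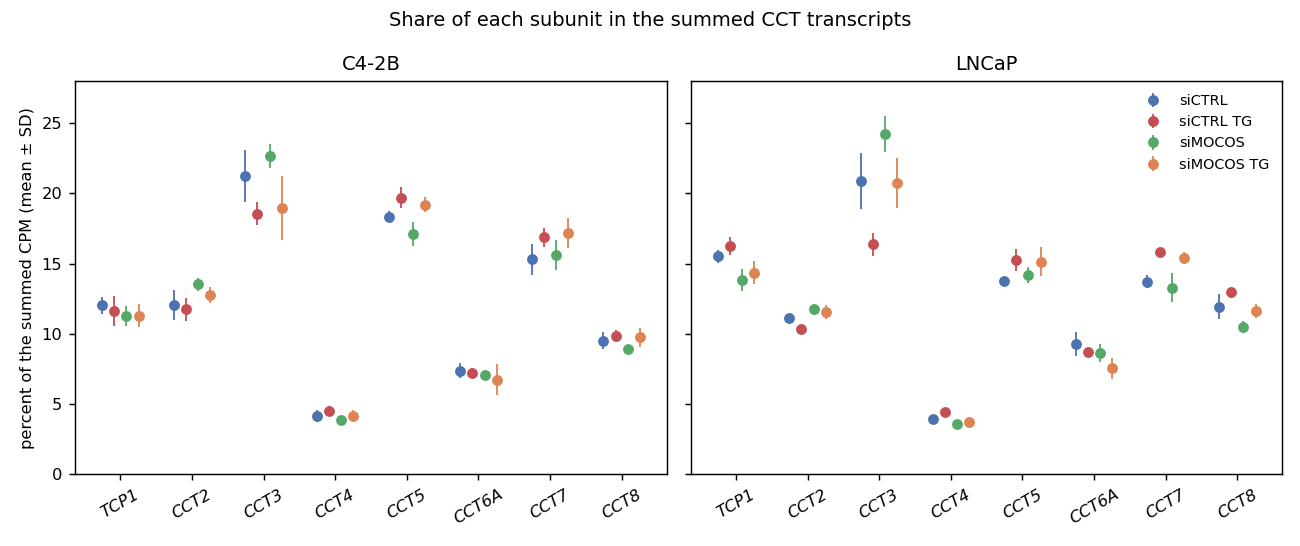
Share of each CCT member in the summed CPM of the 8 members, in percent (y axis), as group mean (points) with SD (bars), by group and line. In LNCaP the CCT3 share is 20.9% in siCTRL, 16.4% in siCTRL TG, 24.2% in siMOCOS and 20.7% in siMOCOS TG.

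With MOCOS knocked down, TG had a like pattern with CCT3 again in front. In LNCaP, 7 of 8 members were called lower against 21.9% of all genes. CCT3 fell by 0.62 (adjusted p = 5.46e-05), CCT6A by 0.60 (adjusted p = 8.55e-05) and CCT2 by 0.42 (adjusted p = 0.000194) on the log2 scale, and CCT7 was not called at -0.19 (adjusted p = 0.0703). In C4-2B, 3 of 8 were called lower against 17.2% of all genes. They were CCT3, which fell by 0.58 (adjusted p = 0.00021), CCT2, by 0.41 (adjusted p = 0.00512), and CCT6A, by 0.39 (adjusted p = 0.0308). The 5 others had changes between -0.32 and -0.16. With offsets for GC content and length the C4-2B count was 7, and in 1 fit of all 32 libraries it was 6. It was 2 (CCT2 and CCT3) with no filter on low counts and when replicate 2 or 4 of siMOCOS TG or replicate 1 or 2 of siMOCOS was left out. The call of CCT6A was also lost without siMOCOS TG replicate 1 and without siMOCOS replicate 4, where TCP1 was called in its place, and so in 6 of 8 such fits.

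After knockdown the largest changes in LNCaP without TG were in CCT8 and TCP1 and not in CCT3. Without TG, 5 of 8 members were called lower in that line, against 9.73% of all genes. CCT8, whose siCTRL libraries were at 426, 423, 438 and 482 CPM, was at 368, 340.3, 309 and 344.5 in siMOCOS. TCP1 was at 517, 445, 403 and 432 in siMOCOS, below its 4 siCTRL libraries given above. Both genes separated fully between the groups. CCT8 fell by 0.40 on the log2 scale (SE 0.075, adjusted p = 0.00151) and TCP1 by 0.38 (SE 0.0884, adjusted p = 0.00716).

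The other 3 calls in LNCaP were nearer the threshold. CCT4 went from between 134 and 151 CPM to between 101 and 131 and fell by 0.33 (adjusted p = 0.0237). CCT6A fell by 0.32 (adjusted p = 0.0379), and CCT7 by 0.26 (adjusted p = 0.0455) with 1 siMOCOS library at 504 CPM among the siCTRL libraries. CCT3, the member with the largest TG response, was at 807, 786, 802 and 740.1 CPM in siMOCOS, within the range of its siCTRL libraries, and its change was -0.01 (SE 0.0987, adjusted p = 0.978). CCT2 (-0.14, adjusted p = 0.239) and CCT5 (-0.17, adjusted p = 0.119) were not called. The library that stood apart, siCTRL TG replicate 2, is in neither group of this comparison and bears on it only through the shared fit. Without it the LNCaP count was 2 (TCP1 and CCT8), and with the offsets for GC content and length the count was 1 (CCT8). It was 2 when siCTRL replicate 1, siCTRL replicate 4 or siMOCOS replicate 2 was left out, and 3 without siCTRL replicate 2 or siMOCOS replicate 3. The sizes of the changes also moved. With the offsets the median member change was -0.13, against -0.29 without them, and 5 of 8 changes were negative, against 8 of 8. TCP1 was at -0.19 and CCT6A at -0.12 with the offsets.

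In C4-2B without TG, 1 of 8 members was called lower after knockdown, against 8.14% of all genes. This was CCT5, at 505, 519, 503.5 and 470.2 CPM in siMOCOS against 542 to 719.5 in siCTRL, with a fall of 0.30 on the log2 scale (SE 0.0955, adjusted p = 0.0384). All 8 changes were negative, between -0.32 and -0.02, and the median was -0.27 against 0.00 for all genes. Without siCTRL replicate 1 the median was -0.16 and 7 of 8 changes were negative, and the same values were found without the libraries that stood apart. The call depends on single libraries and settings. Leaving out any 1 of the 8 libraries gave between 0 and 2 called members, none of these settings gave 1, and the count was 0 without the libraries that stood apart.

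With TG present in both groups, the knockdown gave 4 of 8 members called lower in LNCaP, against 10.2% of all genes. They were CCT4 with a fall of 0.38 (adjusted p = 0.00738), CCT8 of 0.30 (adjusted p = 0.00845), TCP1 of 0.32 (adjusted p = 0.0148) and CCT6A of 0.36 (adjusted p = 0.0168) on the log2 scale. CCT3 had a positive change, 0.19, that was not called (SE 0.0988, adjusted p = 0.171). With the offsets for GC content and length only CCT4 was called, and the median member change was -0.14, against -0.24 without them. The summed stromal and endothelial markers lay between 124.3 and 238.0 CPM in LNCaP siMOCOS TG and between 46.2 and 66.5 in siCTRL TG, and their part in the result was not tested. In C4-2B, edgeR called 0 of 8 members, against 7.60% of all genes, and 0 members had an unadjusted p under 0.05. DESeq2 and limma voom also called 0 there, and without the libraries that stood apart the count was 2 (CCT4 and CCT6A).

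Across the 4 groups of C4-2B, siCTRL had the highest mean and siMOCOS TG the lowest for 8 of 8 members. The same order of extremes held for 7 of 8 members in LNCaP, where CCT3 was highest in siMOCOS (784 ± 30.4 CPM) and lowest in siCTRL TG (439 ± 50.0). This is an order of group means, and the tests above say which of them differ. The interaction, which asks whether the knockdown effect is the same in the presence of TG, was called for 0 of 8 members in C4-2B, where 0.0708% of all genes were called, and for 0 of 8 in LNCaP, where 0.00724% were. Unadjusted p under 0.05 was reached by 0 members in both lines, and DESeq2 and limma voom called 0. The member interactions ranged from -0.01 to 0.13 in C4-2B (SE 0.135 to 0.202) and from -0.06 to 0.20 in LNCaP (SE 0.102 to 0.14), and these errors leave room for differences of that size. The TG and knockdown comparisons of a line share libraries, so their values are given side by side and not as separate support for each other.

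In siCTRL cells without TG, 4 members were called different between the lines, in 1 fit of all 32 libraries. In that fit 41.2% of all genes were called different between the lines. The count of 4 members is close to that share and does not set the CCT genes apart from other genes. TCP1 was at 399 ± 43.1 CPM in C4-2B siCTRL and 575 ± 18 in LNCaP siCTRL, higher in LNCaP by 0.53 on the log2 scale (adjusted p = 0.000397). CCT8 was higher in LNCaP by 0.48 (adjusted p = 0.000109) and CCT6A by 0.48 (adjusted p = 0.00216), although the CCT6A libraries of the lines overlapped. CCT5 was the 1 member lower in LNCaP, at 509.7 ± 11.6 against 610.0 ± 76.4 CPM (log2 -0.26, adjusted p = 0.00763). That call was lost without C4-2B siCTRL replicate 1 (log2 -0.17, adjusted p = 0.0649), and the adjusted p ranged from 6.28e-06 to 0.0246 over the alternatives that kept it. CCT2, CCT3, CCT4 and CCT7 had differences between -0.01 and 0.15 and were not called.

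The responses were also compared between the lines. The TG response of siCTRL cells was called to differ for 0 of 8 members, against 0.848% of all genes, with the largest difference for CCT3 at -0.26 (SE 0.133, adjusted p = 0.56). The knockdown response without TG differed for 0 of 8, against 0.157% of all genes, and that with TG for 0 of 8, against 0.431%. By edgeR, unadjusted p under 0.05 was reached by 0, 0 and 1 members in these 3 comparisons, the 1 being CCT3 in the knockdown response with TG (0.30, adjusted p = 0.273). DESeq2 and limma voom called 0 members in each. That 5 members were called after knockdown in LNCaP and 1 in C4-2B was thus not shown to be a difference between the lines.

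CCT6A has close relatives in the genome whose transcripts moved the other way with TG. CCT6B (chr17:34927859-34981078, minus strand) encodes a second zeta subunit known mainly from testis, and CCT6P1 (chr7:65751142-65763354, plus strand) and CCT6P3 (chr7:65038354-65074713, plus strand) are transcribed pseudogenes. CCT6P1 was at 1.28, 1.67, 1.44 and 1.15 CPM in C4-2B siCTRL and at 8.48, 9.58, 6.59 and 8.11 with TG. It rose by 2.56 on the log2 scale in C4-2B (adjusted p = 3.23e-06) and by 2.28 in LNCaP (adjusted p = 7.48e-07). CCT6P3 rose by 2.64 (adjusted p = 2.19e-06) and by 2.30 (adjusted p = 2.16e-07), from means of 1.08 and 1.69 to 6.88 and 8.42 CPM. All TG libraries lay above all siCTRL libraries for these genes.

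CCT6B rose by 1.26 in C4-2B (0.982 ± 0.250 to 2.37 ± 0.475 CPM, adjusted p = 0.00112) and by 0.91 in LNCaP (3.60 ± 0.588 to 6.72 ± 1.00 CPM, adjusted p = 0.00041). It was also higher in LNCaP than in C4-2B by 1.85 (adjusted p = 1.2e-07), and in C4-2B it rose by 1.09 after knockdown without TG (adjusted p = 0.008). The copies are near-identical to CCT6A in places, and how reads shared between them were divided is not given in the sources used here, so their levels are uncertain. At 0.982 to 8.49 CPM in group means they stayed far under CCT6A, whose lowest group mean was 154 CPM.

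**Figure D4:**
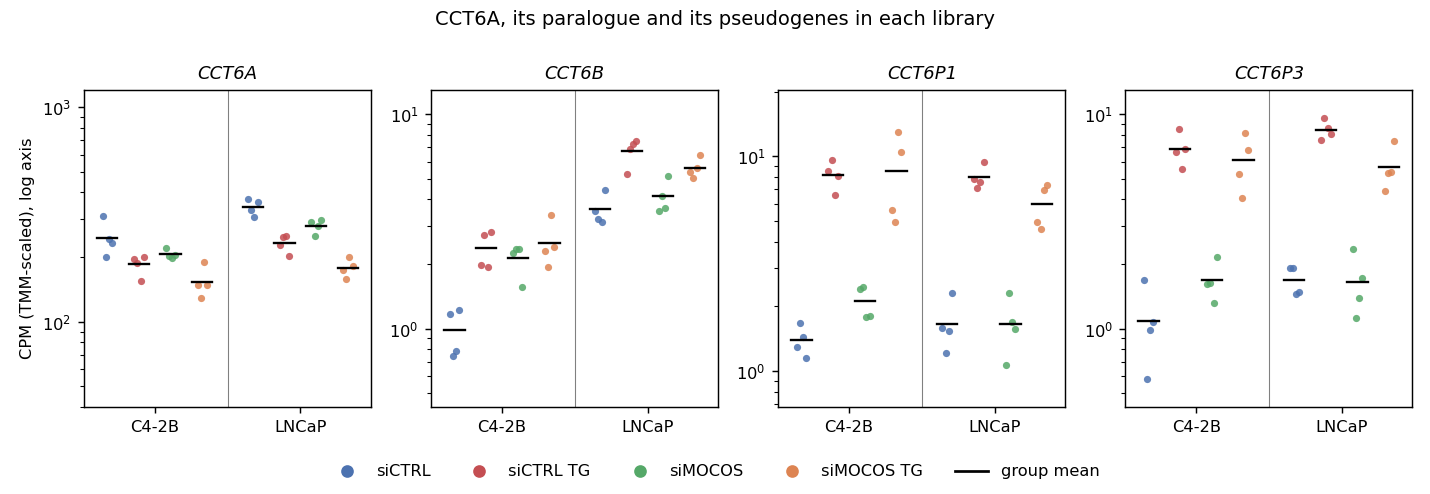
CPM of CCT6A, CCT6B, CCT6P1 and CCT6P3 (y axes, log scale) in every library by group and line, where each point is 1 library. CCT6A lies lower with TG, while CCT6P1 goes from 1.28, 1.67, 1.44 and 1.15 CPM to between 6.59 and 9.58 in C4-2B siCTRL cells.

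Genes that work with the chaperonin were followed from 7 lists. With TG in siCTRL cells, 19.3% of all genes were called lower and 21.2% higher in C4-2B, and 25.1% lower and 24.6% higher in LNCaP. Of the 6 prefoldin subunits, TG in siCTRL cells gave 2 called lower and 0 higher in C4-2B (median -0.28) and 3 lower and 0 higher in LNCaP (median -0.24). PFDN6 went from 125 ± 31.0 to 46.9 ± 5.98 CPM in C4-2B and fell by 1.42 on the log2 scale (adjusted p = 9.09e-05) and by 1.38 in LNCaP (adjusted p = 2.65e-07). PFDN5 fell by 1.29 (adjusted p = 0.000532) and 1.16 (adjusted p = 4.03e-07). Both changes were larger in size than that of any CCT member in the same line. PFDN2 was the third call in LNCaP, with a fall of 0.35 (adjusted p = 0.0301), a call that 6 of 17 alternative settings kept.

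Of 3 phosducin-like cofactors tested, 1 was called higher and 0 lower in each line with TG. It was TXNDC9, which binds CCT and slows its ATP use, and it rose by 0.67 in C4-2B (23.2 ± 4.04 to 37.0 ± 2.86 CPM, adjusted p = 0.0019) and by 0.69 in LNCaP (31.7 ± 2.45 to 51.1 ± 4.73 CPM, adjusted p = 9.71e-05). Among 6 chaperonin-like genes, which include the mitochondrial chaperonin, 1 was lower and 1 higher in C4-2B and 2 were lower and 2 higher in LNCaP. HSPE1, the lid of the mitochondrial chaperonin, fell by 1.301 (adjusted p = 1.99e-06) and by 1.44 (adjusted p = 2.14e-08), whereas its partner HSPD1 was not called (-0.08 and -0.17, adjusted p = 0.617 and 0.166).

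The cytosolic heat shock chaperones gave 8 lower and 0 higher of 16 tested in C4-2B (median -0.68) and 9 lower and 2 higher in LNCaP (median -0.67). The constitutive HSP70 gene HSPA8 averaged 3522 ± 427 CPM in C4-2B siCTRL and 824.5 ± 45.7 with TG, and it fell by 2.10 (adjusted p = 1.08e-08), and by 1.74 in LNCaP (adjusted p = 4.12e-09). HSP90AA1 fell by 1.01 and 1.19 (adjusted p = 1.1e-05 and 8.69e-09) and DNAJB1, a cofactor of HSP70, by 1.11 and 0.96 (adjusted p = 2.26e-06 and 8.82e-07). HSPA1B fell by 1.99 in C4-2B and fell by 1.4955 in LNCaP (adjusted p = 4.11e-07 and 5.82e-08), but it shares nearly its whole sequence with HSPA1A and its level is uncertain. DNAJB4 rose in LNCaP from 36.7 ± 6.11 to 145 ± 12 CPM, by 1.98 (adjusted p = 4.67e-09), and was not called in C4-2B (0.46, adjusted p = 0.234).

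Among the substrates, actin and tubulin genes gave 9 lower and 0 higher of 12 tested in C4-2B (median -1.005) and 6 lower and 0 higher of 11 in LNCaP (median -0.81). The beta-tubulin TUBB went from 1730 ± 132 to 543 ± 25.1 CPM in C4-2B, a fall of 1.68 (adjusted p = 1.08e-08), and fell by 1.61 in LNCaP (adjusted p = 9.13e-09). TUBB4B fell by 1.54 and 1.41 (adjusted p = 3.62e-06 and 4.96e-08) and TUBA4A by 1.43 and 1.75 (adjusted p = 4.26e-06 and 9.26e-07). Tubulin genes are near-identical in coding sequence, so reads may be split between them. Of 17 WD-repeat and other substrates, 3 were lower and 1 higher in C4-2B and 3 lower and 2 higher in LNCaP, no larger shares than over all genes. CCNE1, cyclin E1, fell by 1.58 and 1.91 (adjusted p = 1.51e-05 and 1.71e-07). Of 6 tubulin folding cofactors, which take over tubulin after CCT, 3 were lower and 1 higher in C4-2B and 1 lower and 1 higher in LNCaP, the higher one in both being TBCE (log2 0.45 and 0.62, adjusted p = 0.0132 and 0.000897).

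After knockdown without TG, 8.14% of all genes were called lower and 9.09% higher in C4-2B, and 9.73% lower and 6.0% higher in LNCaP. Actin and tubulin genes gave 5 lower and 0 higher of 12 in C4-2B and 3 lower and 0 higher of 11 in LNCaP. The alpha-tubulin TUBA1B went from 1820 ± 351 to 577.5 ± 21.4 CPM in C4-2B and from 1757 ± 289 to 747 ± 100.2 in LNCaP, falls of 1.67 (adjusted p = 1.01e-06) and 1.26 (adjusted p = 3.26e-06). TUBB fell by 0.99 and 0.62 (adjusted p = 4.96e-06 and 0.00193). Of the WD-repeat and other substrates, 3 were lower and 1 higher in C4-2B and 4 lower and 2 higher in LNCaP. CDC20 fell by 1.88 and 1.31 (adjusted p = 5.27e-06 and 6.32e-05) and WRAP53, a telomerase factor folded by CCT, by 0.92 and 0.62 (adjusted p = 2.77e-05 and 0.00268).

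With TG present in both groups the cytoplasmic actin genes ACTB and ACTG1 of LNCaP were higher after knockdown. Of all genes, 7.60% were called lower and 9.21% higher in C4-2B, and 10.2% lower and 11.7% higher in LNCaP. Actin and tubulin genes gave 1 lower and 3 higher of 11 in LNCaP (median 0.48) and 4 lower and 1 higher of 12 in C4-2B (median -0.0032). ACTB averaged 884.5 ± 99.7 CPM in LNCaP siCTRL TG and 1356 ± 237 in siMOCOS TG and rose by 0.64 (adjusted p = 0.0022), and ACTG1 rose by 0.75 (adjusted p = 0.00112), calls kept in 15 of 15 alternative settings. In C4-2B their changes of 0.52 and 0.62 were not called (adjusted p = 0.0692 and 0.0531). TUBA1B fell by 0.90 in C4-2B (adjusted p = 0.000527) and by 0.73 in LNCaP (adjusted p = 0.000422). Prefoldin and the phosducin-like genes had 0 calls in either line, and the cytosolic heat shock chaperones gave 1 lower and 1 higher of 16 in C4-2B and 3 lower and 4 higher in LNCaP.

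Without TG, prefoldin and the phosducin-like genes had 0 calls in C4-2B after knockdown and 1 lower each in LNCaP, VBP1 (-0.27, adjusted p = 0.0496) and TXNDC9 (-0.41, adjusted p = 0.0282). VBP1 was called in 1 of 15 alternative settings and TXNDC9 in 8 of 15. HSPD1 fell by 0.59 and 0.66 (adjusted p = 0.00133 and 0.00022), and HSP90AA1 by 0.66 and 0.37 (adjusted p = 0.00163 and 0.00841), in C4-2B and LNCaP. Whether the levels of these partners bear on the CCT genes was not tested.

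**Figure D5:**
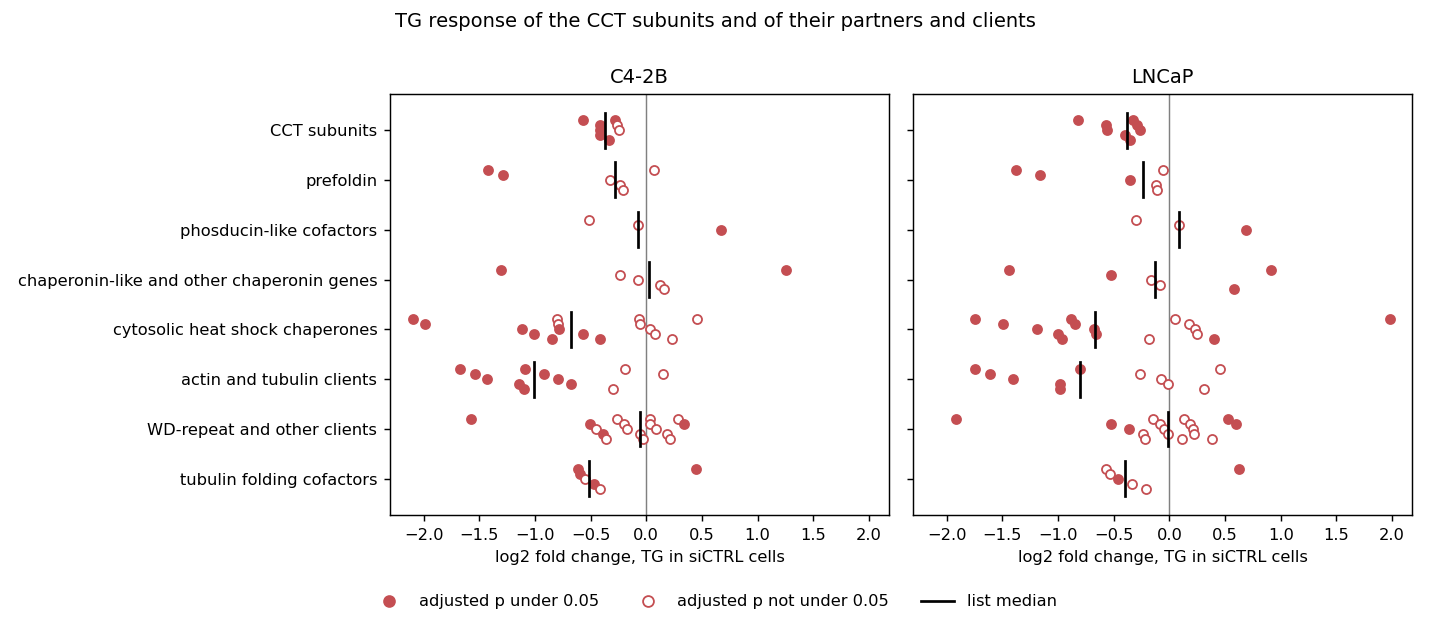
Log2 fold change (x axis) of every tested gene of the CCT set and of the 7 partner lists (rows) with TG in siCTRL cells, by line, where each point is 1 gene, filled points passed an adjusted p of 0.05 and the line marks the list median. The actin and tubulin list has medians of -1.005 in C4-2B and -0.81 in LNCaP, beside -0.37 and -0.38 for the CCT set.

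Some members start near the start of a neighbour in the opposite orientation. TCP1 starts 210 bases from MRPL18, a mitochondrial ribosomal protein gene, and with TG MRPL18 fell by 0.46 in C4-2B (adjusted p = 0.0353) and by 0.58 in LNCaP (adjusted p = 0.000164), beside the changes of -0.42 and -0.40 in TCP1. The C4-2B call of MRPL18 was kept in 7 of 17 alternative settings. CCT5 starts 640 bases from FAM173B, which fell by 0.58 (adjusted p = 0.00521) and 0.74 (adjusted p = 6.07e-05). CCT4 starts 68 bases from COMMD1, whose changes of 0.13 and 0.04 were not called (adjusted p = 0.655 and 0.845). CCT3 starts 978 bases from the start of TSACC, but TSACC overlaps the bases before the CCT3 start, so these genes do not share an upstream region. TSACC fell by 1.40 (adjusted p = 0.0109) and 1.03 (adjusted p = 0.0174), and the C4-2B call was lost without the libraries that stood apart.

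Across the 32 libraries, centred on the mean of each line, the members varied together, as a description of libraries that share groups and depth. The correlation of log2 CPM between members was highest for CCT6A and CCT5 (Pearson r 0.94) and lowest for CCT4 and CCT3 (0.52), CCT8 and CCT3 (0.59) and CCT7 and CCT3 (0.62). Among 10480 genes of at least 5 CPM on average, the 8 non-members closest to the mean of the CCT genes were NPM1 (0.96), PRPS2 (0.96), PTGES3 (0.95), PCNA (0.95), PTCD3 (0.95), HPRT1 (0.93), NAP1L4 (0.93) and BRIX1 (0.93). PCNA, the sliding clamp of DNA replication, changed by -1.33 and -1.39 with TG in C4-2B and LNCaP and by -1.13 and -0.78 after knockdown. NPM1, which encodes the nucleolar protein nucleophosmin, changed by -0.41 and -0.42 with TG, close to the members' medians. PTGES3, which encodes the HSP90 cofactor p23, changed by -0.44 and -0.41.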

How the data were processed

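The 8 members and the lists of partner and marker genes were chosen with earlier results of these data known. The authors' table holds 1 expected count per gene and library (estimated counts, not scaled to library size per the deposited column totals). Salmon 1.5.2, STAR 2.6.1d, cutadapt 3.4, Trim Galore 0.6.7, FastQC 0.11.9 and hg38 are named, in no given order, per the submitters' processing notes, and the gene annotation is not given in the sources used here. Deposited values were rounded to whole numbers.

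Each line was fitted by itself (16 libraries, 4 groups, 12 residual degrees of freedom) with edgeR 4.0.16 in R 4.3.3, using filterByExpr, TMM factors and the quasi-likelihood test, with Benjamini-Hochberg adjustment over 14127 genes in C4-2B and 13806 in LNCaP. Line differences (LNCaP minus C4-2B) came from all 32 libraries and 14628 genes. Levels are CPM with TMM factors over all 32 libraries, and error is the SD over 4 libraries unless SE is written. SE is the unshrunken log2 change, without sign, divided by the square root of F. Totals of 7.51 M to 27.1 M counts limit precision mainly for genes of a few CPM, and the fit was tested on simulated counts with 200 changed genes.

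Named besides the members are MOCOS, the CCT6 copies, at most 3 genes of each list with the smallest adjusted p per line with TG and after knockdown, and the 8 genes most like the CCT mean. ACTA2, ACTB, ACTG1, other markers and the promoter neighbours fall outside this rule and were chosen after their values were seen. Lengths, positions and exons come from GENCODE v29, promoters from RefSeq. Alternatives were DESeq2 1.42.0, limma 3.58.1 (voom), DESeq2-type RLE factors, no filter on low counts, GC and length offsets (loess span 0.5, 89.6% and 89.9% of tested genes covered), 1 fit of all libraries, siCTRL libraries alone with and without a replicate block, and leaving out each library. Of 7 libraries whose deviations correlated with GC content or length beyond 0.5, the strongest in each group, 4 in all, were left out together in an alternative added after seeing the data.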

Additional observations from a re-analysis of the deposited data

Results flagged for a closer look

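In C4-2B siMOCOS, CCT6B in replicate 4 was at 1.56 CPM, while the other 3 libraries were between 2.24 and 2.36 CPM. The gap of this library to its nearest neighbour was 0.853 of the range of its group, above Dixon's critical value for groups of this size. Of 88 groups of 4 libraries examined this was the 1 that stood out, and chance flags about 1 in 20 groups.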

How the results depend on the processing

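The following member counts moved with the settings, and the cause was not tested. For TG in siCTRL cells of C4-2B (6 members) the count was 2 without the libraries that stood apart, 4 in a fit of the siCTRL libraries alone and 1 when the replicate block was added to that fit, and 2 to 7 when 1 library was left out. Of 13372 genes, 2854 were called lower in the fit of the siCTRL libraries alone and 2077 with the block. For TG in siMOCOS cells of C4-2B (3) it was 7 with GC and length offsets, 6 in 1 fit of all 32 libraries, 2 with no filter and 2 to 3 with 1 library left out. For knockdown without TG in C4-2B (1) it was 0 with RLE factors, with no filter on low counts and without the libraries that stood apart, 2 with GC and length offsets and in 1 fit of all libraries, and 0 to 2 with 1 library left out. For knockdown without TG in LNCaP (5) it was 3 with RLE factors, 2 with no filter, without the library that stood apart (which is in neither group) and in 1 fit of all libraries, 1 with GC and length offsets, and 2 to 4 with 1 library left out. For knockdown with TG it was 2 without the libraries that stood apart in C4-2B (0), and 1 with GC and length offsets in LNCaP (4). The count for TG in siCTRL cells of LNCaP (8) was 6 to 8 with 1 library left out, 6 with no filter, 8 in a fit of the siCTRL libraries alone and 7 with the replicate block added to it. Whether libraries of the same number are paired cannot be told. The correlation of deviations between siCTRL and siCTRL TG libraries of the same number was -0.03, -0.54, -0.57 and 0.26 in C4-2B. In LNCaP it was -0.11, 0.35, -0.17 and 0.04, and only LNCaP replicate 2 correlated best with its own number. These deviations also carry the GC and length differences between libraries, so they cannot exclude pairing.

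Directions that turned were all of members or copies whose change was not called. GC and length offsets turned CCT2 after knockdown in C4-2B (0.0222 without and 0.0259 with TG), CCT2, CCT3, CCT5 and CCT6P3 after knockdown in LNCaP without TG (0.0276, 0.0925, 0.0167 and 0.12) and CCT5 with TG (0.0045), and the line differences of CCT2, CCT4 and CCT7 (-0.0935, -0.11 and 0.0208). Leaving out the libraries that stood apart turned CCT2 after knockdown without TG in C4-2B (0.0448), CCT6B and CCT6P1 with TG (-0.15 and -0.27) and the line difference of CCT7 (0.0581). It also turned CCT3 after knockdown without TG in LNCaP (0.0389), where the library left out is in neither group. The LNCaP knockdown change of CCT3 without TG was 0.0288 with DESeq2 and with RLE factors, 0.0266 with no filter and 0.016 in 1 fit of all libraries. That of CCT2 with TG was -0.0057 with DESeq2, -0.0054 with RLE factors and -0.0123 in 1 fit of all libraries. With limma voom CCT6P1 after knockdown with TG in C4-2B was -0.0171 and the line difference of CCT7 was 0.0066. With 1 library left out, the range after knockdown in C4-2B was -0.0831 to 0.0445 for CCT2 without TG, -0.0373 to 0.0264 for CCT2, -0.0576 to 0.21 for CCT6B and -0.18 to 0.24 for CCT6P1 with TG. In LNCaP it was -0.0659 to 0.0465 for CCT3, -0.23 to 0.19 for CCT6P1 and -0.34 to 0.0863 for CCT6P3 without TG, and -0.0576 to 0.016 for CCT2 with TG. For the line difference it was -0.0374 to 0.12 for CCT2, -0.0421 to 0.20 for CCT4 and -0.10 to 0.0959 for CCT7.

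Over all genes, knockdown without TG in LNCaP gave 829 higher and 1344 lower, against 1252 and 1326 with DESeq2 and 1231 and 958 with GC and length offsets. The interaction was called for 10 genes in C4-2B (85 with DESeq2, 73 with offsets, 44 in 1 fit of all libraries, 6 with limma voom and with no filter, 5 without the libraries that stood apart) and for 1 in LNCaP (55 with DESeq2, 20 with offsets, 0 without the library that stood apart). The line difference in the TG response was called for 124 genes (188 with DESeq2, 78 with no filter, 272 with offsets), in the knockdown response without TG for 23 (99 with DESeq2, 12 with no filter, 80 with offsets, 114 without the libraries that stood apart) and with TG for 63 (306 with DESeq2, 96 with RLE factors, 108 with limma voom, 15 with no filter, 20 without those libraries). Copies of CCT6A at a few CPM are limited by depth.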
